A study of Mus musculus with 4 samples.

Results

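The T cell receptor beta locus, Trb, was examined on mouse chromosome 6. It was taken as every peak whose midpoint lay in chr6:40830000-41520000 of the mouse build mm9, a window of 690.0 kb. In this window the 4 deposited lists of DNase I peaks held 50 peaks, which merged into 28 regions where they overlapped by at least 1 bp. Over the whole genome the lists merged into 38986 regions. The window was chosen by position, and the locus was selected on the calls and folds of these same peaks, including a strong site called in the DKO libraries alone. Its calls and folds are therefore described here and not tested.

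The cells were naive CD8+ splenocytes, gated as GFP+ TCRbeta+ CD62Lhi CD44lo-med. They were cultured for 72 h with the homeostatic cytokines IL-7 and IL-15. DNase I, which cuts DNA where chromatin is open, was applied to the lysed cells, and the fragments were sequenced (DNase-seq). There were 2 libraries labelled Tcf1-/-Lef1-/- (double knockout, DKO), from mice with floxed Tcf1 and Lef1, and 2 wild-type libraries (WT). Mice of both genotypes carried hCD2-Cre, a Cre recombinase driven by the human CD2 promoter in lymphocytes, and Rosa26-lsl-GFP, a reporter that turns green where Cre has acted. The labels name no T cell receptor transgene, no sex and no age, and do not say whether the 2 libraries of a genotype came from separate mice.

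Trb encodes the beta chain of the alpha-beta T cell receptor, which recognises peptide held by MHC molecules. In the thymus each developing T cell joins a D segment to a J segment and then a V segment to that DJ unit, and the DNA between the joined segments is usually cut out. The joined exon is spliced to a constant region, Trbc1 or Trbc2, and transcription from the promoter of the joined V segment depends on an enhancer beyond Trbc2. Tcf1 and Lef1 are related DNA-binding proteins that act from early T cell development onwards.

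In the RefSeq gene table for GRCm38.p6, Trb holds 35 V segments, of which 13 are pseudogenes, 2 D segments, 14 J segments and the 2 constant regions, Trbc1 and Trbc2. Trbv1 stands alone at the low end, with 5 protein-coding genes between it and Trbv2. The V segments Trbv2 to Trbv30 follow, then 8 protein-coding genes that include the trypsinogens Prss1, Prss2 and Prss3. After these come Trbd1 with its J segments and Trbc1, and Trbd2 with its J segments and Trbc2. Trbv31 lies beyond Trbc2, with no other gene of the table between them. The table belongs to another build than the peak lists, so its order was used and its positions were not, and no peak was assigned to a named segment.

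The locus held calls mainly in the DKO libraries. The numbers of peaks were 24 and 16 in DKO replicates 1 and 2, against 7 and 3 in WT replicates 1 and 2. The means were 20.0 ± 5.66 in DKO and 5.0 ± 2.83 in WT (SD, n = 2 each), a ratio of 4.0, and both DKO counts lay above both WT counts. The DKO lists were also longer as wholes, 34788 and 21353 peaks against 17521 and 11073 peaks in WT, a ratio of means of 1.96. The locus therefore took 0.0690% and 0.0749% of the DKO lists, against 0.0400% and 0.0271% of the WT lists. The 95% intervals of these shares, exact Clopper-Pearson and for counting error only, ran from 0.0442% to 0.103% and from 0.0428% to 0.122% in DKO, against 0.0161% to 0.0823% and 0.00559% to 0.0792% in WT. The intervals of all 4 libraries overlapped, which is no test of genotype, since they leave out the spread between libraries. With all lists held to 11073 peaks, the length of the shortest, the counts were 10 and 11 in DKO, against 5 and 3 in WT. With 2 libraries against 2, the smallest p that a two-sided exact permutation test can give is 0.333. On the log2 scale the ratio of DKO to WT peaks was 2.0, and without WT replicate 1 it was 2.74.

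**Figure D1:**
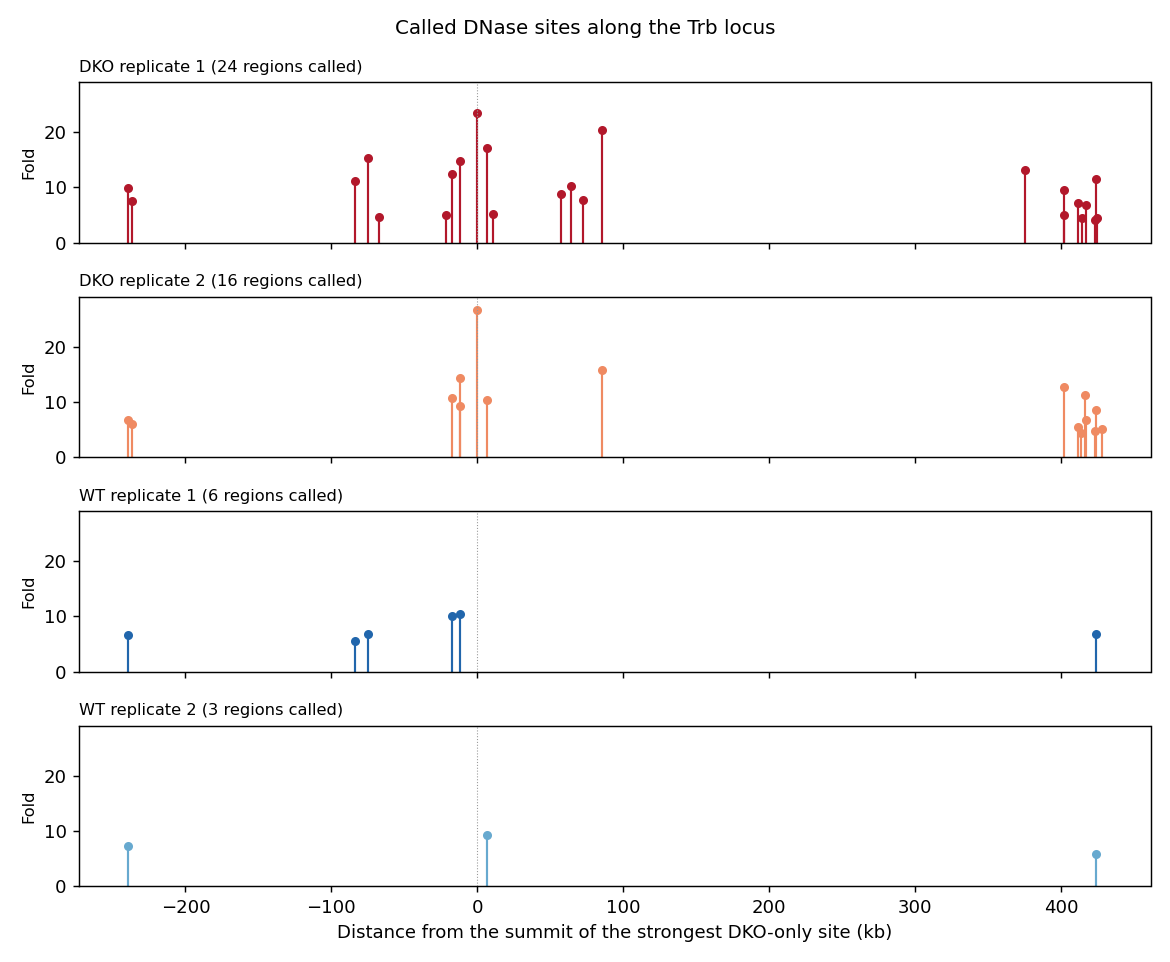
Fold enrichment of each called region (vertical axis, the strongest peak of the region) against its distance in kb from the summit of the strongest DKO-only site (horizontal axis), with a row for each library. DKO replicates 1 and 2 had 24 and 16 regions, against 6 and 3 in WT replicates 1 and 2, and the calls fell into 3 stretches with long gaps between them.

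Beside these counts stand facts of the whole libraries. Fold enrichment is the pileup of fragments at the summit over the local background, each plus 1, as the authors' peak caller gives it. The median fold was 8.50 and 7.24 in the DKO lists, against 6.43 and 6.13 in the WT lists. The lowest local background, which grows with depth but need not follow depth alone, was 1.23 and 1.15 fragments in DKO, against 1.50 and 1.47 in WT. The DKO lists held 55 and 57 peaks on chromosome Y, against 0 and 0 in WT, so this difference moves with genotype too. Its part in the calls of the locus was not tested, and in these 4 libraries it cannot be told apart from that of genotype. A higher fold can mean more cells with an open site, more cutting per cell or a lower local background. The first 2 cannot be told apart in these libraries. The lists name no gene and no mm9 annotation was used, so markers of CD8+ T cells or of other cells were not examined.

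All 28 regions were called in at least 1 DKO library, against 93.6% of all regions of the series. DKO replicate 1 called 24 (85.7%), against 88.6% of all regions, and DKO replicate 2 called 16 (57.1%), against 53.9%. WT replicate 1 called 6 (21.4%), against 44.5%, and WT replicate 2 called 3 (10.7%), against 28.2%. At least 1 WT library called 7 of them (25.0%), against 49.7% of all regions. Both WT libraries called 2 (7.14%), against 22.9%, and these same 2 regions were the ones called in all 4 libraries, a pattern found in 20.7% of all regions. Both DKO libraries called 12 (42.9%), against 48.9%. Called in both DKO libraries and in neither WT library, here termed DKO-only, were 7 regions (25.0%), against 14.3% of all regions. This contrast was used to choose the locus and is given as a description. Counted without DKO replicate 1 or DKO replicate 2, such regions numbered 11 of 18 or 17 of 24, against 27.5% or 48.1% of all regions under the same omission. Without WT replicate 1 or WT replicate 2 they numbered 9 of 28 or 8 of 28, against 27.0% or 16.9% of all regions. Those called in all remaining libraries numbered 4 of 28 without WT replicate 2. That class asks for fewer calls, and its share of all regions is not given here, so the count is not read further. No region was WT-only, the reverse class, which held 0.631% of all regions. DKO replicate 1 alone called 10 (35.7%), against 31.6% of all regions, and DKO replicate 2 alone called 4 (14.3%), against 4.3%. WT replicates 1 and 2 called no region of the locus alone, against 4.28% and 1.49% of all regions. With lists of equal length the locus kept 13 regions, of which 3 (23.1%) were DKO-only, against 5.75% of all regions at that length.

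**Figure D2:**
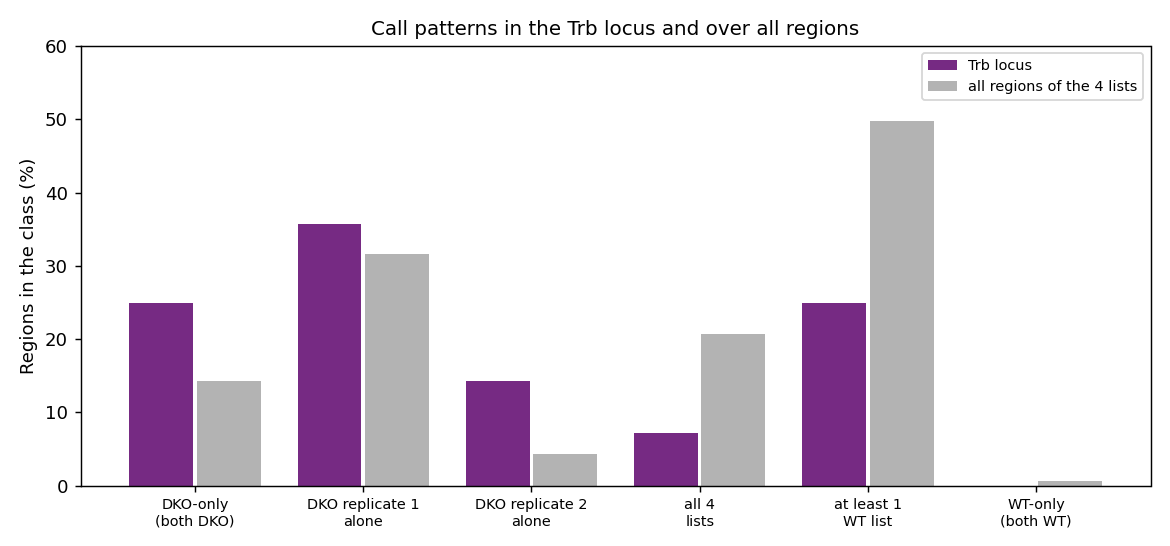
Share of regions in each class of calls (vertical axis, %) for the 28 regions of the Trb locus and for all 38986 regions of the 4 lists. The classes overlap, since a region called in all 4 lists is also one called in at least 1 WT list. The locus stood below the whole series for calls in at least 1 WT list, 25.0% against 49.7%, and above it for calls in DKO replicate 2 alone, 14.3% against 4.3%.

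The surroundings held fewer sites. The window of the same length directly below the locus had 9 regions, with 8 and 3 peaks in DKO replicates 1 and 2, against 3 and 2 in WT replicates 1 and 2. The window directly above had 6 regions, with 6 and 5 peaks in DKO, against 3 and 2 in WT. DKO-only regions numbered 0 of 9 below and 2 of 6 above (33.3%), beside 25.0% in the locus and 14.3% of all regions. The share above the locus was thus no lower than that within it, on few regions. The nearest peak outside the low edge was a DKO replicate 1 call of fold 4.47, 8.27 kb away, and the nearest inside was the site called in all 4 libraries at the low end, 11.2 kb from the edge in WT replicate 1. At the high edge the nearest inside was a DKO replicate 2 call of fold 5.10, 11.5 kb from the edge, and the nearest outside was called in 2 libraries, 34.5 kb away, with a fold of 14.5 in DKO replicate 1.

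The 28 regions lay in 3 stretches, parted by gaps of 152.9 kb and 289.3 kb without a call in any library. By the order of the locus, the lowest stretch lies towards the Trbv1 end and the highest towards the D, J and C segments. The lowest had 2 regions within 2.79 kb, the middle one 14 regions over 169.4 kb and the highest 12 regions over 53.0 kb. WT libraries called 1 of the 2 regions of the lowest stretch, 5 of the 14 of the middle stretch and 1 of the 12 of the highest. Beside these stand 25.0% of the locus and 49.7% of all regions called in at least 1 WT library. On so few regions the stretches are not compared further.

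The lowest stretch held a site called everywhere and a weaker DKO-only neighbour. At chr6:40840984-40841433 the fold was 9.83 and 6.66 in DKO replicates 1 and 2, against 6.67 and 7.34 in WT replicates 1 and 2. The pileups behind these values were 43 and 20 fragments in DKO, against 24 and 22 in WT. The genotypes overlapped, with means of 8.25 ± 2.24 in DKO and 7.01 ± 0.480 in WT (SD, n = 2 each). Among the 8068 regions called in all 4 libraries this site stood at the 18.9th and 15.1th percentile of fold in the DKO lists, against the 33.6th and 65.4th in the WT lists. Some 2.16 kb further up, chr6:40843597-40843776 was DKO-only, with folds of 7.51 and 5.98 and pileups of 31 and 18 fragments.

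The middle stretch held the strongest site of the locus, the DKO-only region chr6:41080288-41080562, referred to as the 41.080 Mb site. Its fold was 23.5 in DKO replicate 1 and 26.7 in DKO replicate 2, a mean of 25.1 ± 2.23 (SD, n = 2). The pileups were 80 and 86 fragments over local backgrounds of 2.44 and 2.26. The summits lay 2 bp apart and the peaks were 275 and 270 bp wide, so the 2 DKO libraries placed the site alike. By −log10 p it ranked 274 of 34788 peaks in DKO replicate 1 and 67 of 21353 in DKO replicate 2. Among the 5593 DKO-only regions of the series it ranked 6 by the lower of its 2 folds.

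Neither WT list had a call there. The nearest WT replicate 1 peak lay 11.8 kb below, with a fold of 10.4, and the nearest WT replicate 2 peak 6.57 kb above, with a fold of 9.33. At the highest WT background in the locus, 3.42 fragments in replicate 1 and 3.35 in replicate 2, a pileup of 17 fragments would have reached the smallest fold and the smallest −log10 p found in either list. A listed peak must also be wide enough, and the narrowest were 93 and 97 bp in WT, against 85 and 86 bp in DKO. The smallest −log10 p was 5.62 and 5.40 in WT, against 5.18 and 5.18 in DKO, so both minimums were higher in WT. Some DKO calls of the locus were narrower than any listed WT peak, such as the 88 bp call of DKO replicate 2 at 41.166 Mb. The part of these limits in the missing WT calls was not tested. The running peak numbers of both WT lists had no gap within the locus, so no WT call between the lowest and the highest listed one had been removed after calling. In DKO replicate 1 there was 1 such gap, and in DKO replicate 2 there were 0. The lists hold no reads from which V segment usage could be counted, and the labels name no T cell receptor transgene, so the part of either in this call was not tested.

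The next strongest DKO-only site closed the middle stretch at its high end. At chr6:41165884-41166155 the folds were 20.3 and 15.8, with pileups of 60 and 33 fragments and summits 1 bp apart. It ranked 19 of the 5593 DKO-only regions by the lower fold. No WT list had a call between this site and the site at 41.505 Mb in the highest stretch.

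**Figure D3:**
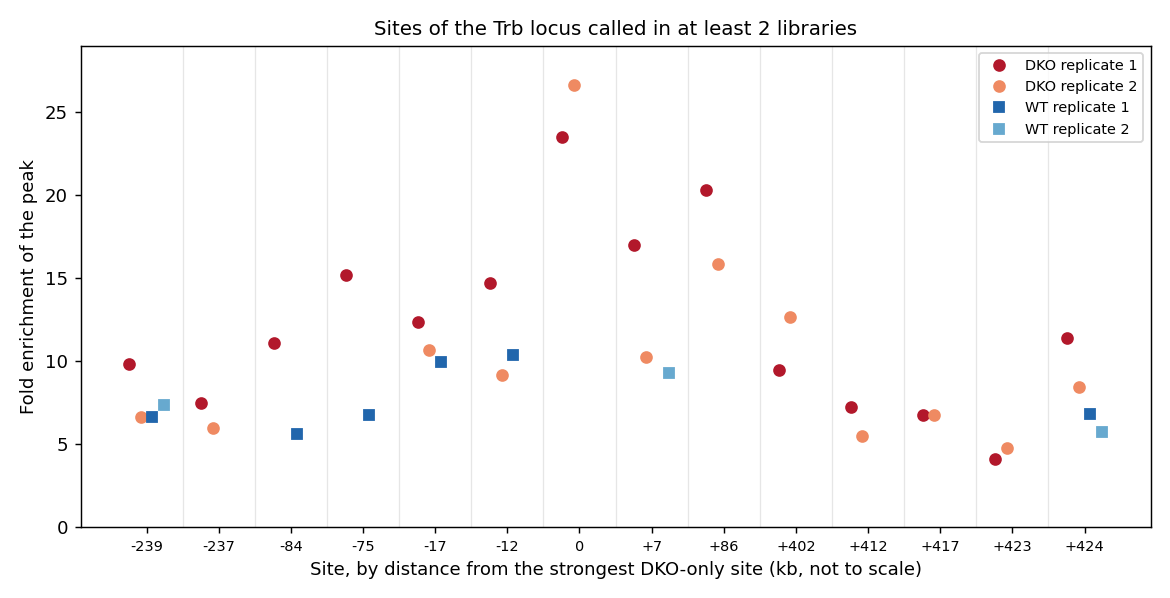
Fold enrichment (vertical axis) of the 14 regions of the Trb locus called in at least 2 libraries, ordered along the chromosome and named by their distance in kb from the 41.080 Mb site. Circles are DKO and squares WT libraries, and a missing symbol means no call. The 41.080 Mb site had the highest fold in both DKO libraries, 23.5 and 26.7, and no WT symbol.

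The 5 sites of the middle stretch that WT cells shared with DKO cells were each called in 1 WT library and never in both. Calls in a single WT library were common in the series, where 49.7% of regions had at least 1 WT call and 22.9% had both. At chr6:41062892-41063239 the fold was 12.4 and 10.7 in DKO replicates 1 and 2, against 9.99 in WT replicate 1. At chr6:41068319-41068504 it was 14.7 and 9.20 in DKO, against 10.4 in WT replicate 1. Here the WT value lay between the DKO values, while at 41.063 Mb it lay below both. At chr6:41087123-41087245 it was 17.0 and 10.2 in DKO, against 9.33 in WT replicate 2, the only middle-stretch call of that library. The site at chr6:40996707-40996829 had a fold of 11.1 in DKO replicate 1, against 5.60 in WT replicate 1. That at chr6:41005711-41005939 had a fold of 15.2 in DKO replicate 1, against 6.80 in WT replicate 1. These last 2 sites were called in both libraries numbered 1 and in neither numbered 2, a pattern of 5.28% of all regions. Of the 5 regions of the locus called in both DKO libraries and at least 1 WT library, 3 had their lower DKO fold above the higher WT fold, against 73.6% of 13469 such regions in the series.

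The libraries of a genotype differed at sites that were strong in 1 of them. Of the 7 regions with a fold of at least 10 in DKO replicate 2, 2 were not called in DKO replicate 1 (28.6%), although that list was the longest. Over the whole series this held for 20 of 4841 such regions (0.413%). The 2 were chr6:41068838-41068936, with a fold of 14.3 and 39 fragments, and chr6:41496946-41497064, with 11.2 and 38 fragments. The 41.069 Mb call lay 333 bp above the site at 41.068 Mb that 3 libraries shared. In the other direction, 4 of the 10 regions with a fold of at least 10 in DKO replicate 1 were not called in DKO replicate 2 (40.0%), against 15.7% of 12957 such regions in the series. The strongest of these 4 was the 41.006 Mb site given above, and the others had folds of 11.1, 10.3 and 13.2. In WT replicate 1 the 2 regions with a fold of at least 8 were both missing from WT replicate 2, against 25.8% of 4699 in the series. In WT replicate 2 the only region with a fold of at least 8 was missing from WT replicate 1, against 4.5% of 2131. These bars of 10 and 8 were chosen after the values had been seen.

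The other 6 regions of the middle stretch were called in DKO replicate 1 alone. They had folds between 4.67 and 10.3 and pileups between 10 and 22 fragments, and the strongest was chr6:41144597-41144722. The list of DKO replicate 1 was the longest of the 4, and the 10 regions it called alone in the whole locus had a median fold of 5.09, against 6.16 for the 12329 regions it called alone in the series.

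In the highest stretch a site called in all 4 libraries stood among calls of the DKO libraries alone. At chr6:41504296-41504848 the fold was 11.4 and 8.48 in DKO replicates 1 and 2, against 6.82 and 5.75 in WT replicates 1 and 2. The pileups were 70 and 30 fragments in DKO, against 29 and 24 in WT. Means were 9.96 ± 2.09 in DKO and 6.28 ± 0.757 in WT (SD, n = 2 each), with no overlap between the genotypes. Folds were lower in the WT lists in general, and the site stood at a like place within each library, at the 32.7th and 36.0th percentile of the shared regions in DKO, against the 36.5th and 30.7th in WT. WT replicate 1 had 2 neighbouring peaks in this region, the other with a fold of 4.75.

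**Figure D4:**
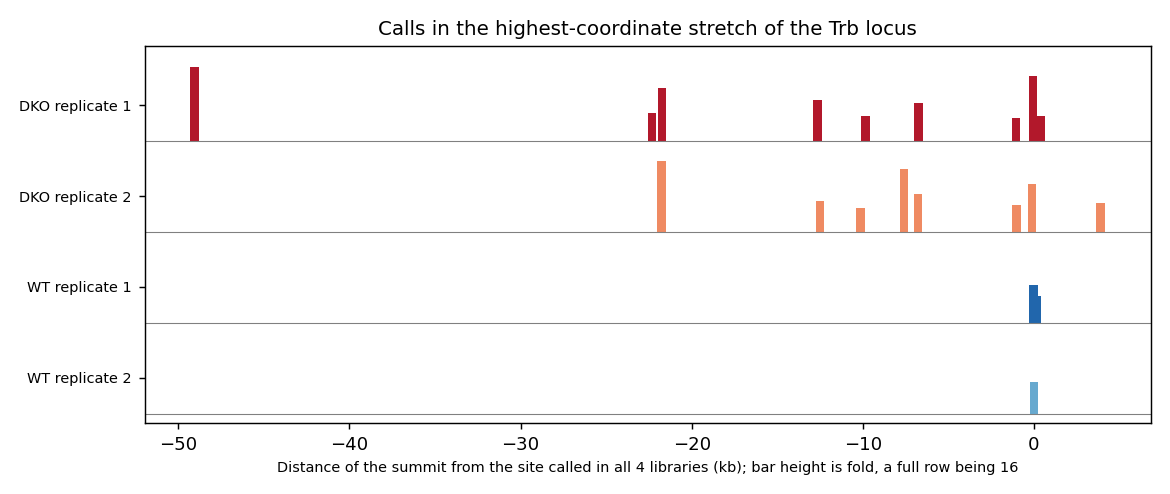
Calls in the highest stretch of the Trb locus, a row for each library, with bar height giving the fold of each peak (a full row is 16) and the horizontal axis the distance in kb from the site called in all 4 libraries. WT calls appear at that site and nowhere else in the stretch, while the DKO rows hold 9 and 8 peaks.

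The 4 DKO-only sites of the highest stretch all lay below that site. The strongest was chr6:41482611-41483161, with folds of 9.47 and 12.6 and pileups of 43 and 37 fragments, and it was the widest DKO-only region of the locus at 551 bp. At chr6:41491764-41492125 the folds were 7.24 and 5.54, with summits 143 bp apart, the largest distance among regions called in at least 2 libraries. At chr6:41497778-41497878 the DKO folds were 6.78 and 6.77, the closest pair of the locus. At chr6:41503479-41503630 they were 4.11 and 4.76, near the smallest listed fold of 4.0 in these lists, and this site ranked 5478 of the 5593 DKO-only regions.

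The calls of 1 library in this stretch numbered 4 from DKO replicate 1 and 3 from DKO replicate 2. Of those of DKO replicate 1, chr6:41455487-41455590 had a fold of 13.2 and 29 fragments, and the other 3 had folds between 4.48 and 4.95. The 3 of DKO replicate 2 were the 41.497 Mb site with its fold of 11.2 and 2 calls of 4.34 and 5.10. Neighbouring calls of the 2 DKO libraries did not always overlap, as at 41.494 and 41.495 Mb, where a DKO replicate 2 call and a DKO replicate 1 call lay 152 bp apart.

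Summits lay close together where libraries shared a call. Regions were formed from overlapping peaks, which by itself keeps their summits near each other. Over the 14 regions called in at least 2 libraries the summits of the strongest peaks lay 1 to 143 bp apart, with a median of 13.5 bp. For the 12 regions called in both DKO libraries the median was 9.50 bp, against 14.0 bp for the 19062 such regions of the series. DKO replicate 1 had the higher fold in 9 of these 12, against 88.2% of the series. The exceptions included the 41.080 Mb site, where DKO replicate 2 was higher, at 26.7 against 23.5.

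The local background differed along the locus in every library. In DKO replicate 1 its median at the called peaks was 3.37 fragments in the lowest stretch, 1.50 in the middle and 3.84 in the highest. DKO replicate 2 had 2.16, 1.62 and 2.52 in the same order. The WT values rest on few peaks. WT replicate 1 had 2.75 at 1 peak, a median of 1.55 over 4 peaks and of 3.41 over 2 peaks, and WT replicate 2 had 2.13, 1.47 and 3.35 at 1 peak in each stretch. These values were lowest in the middle stretch in each library. The smallest value there equalled, to 3 digits, the lowest background of the whole list in each library. Such a value may be a floor of the list, so how far the background fell at those peaks is not known. A call of DKO replicate 1 at 41.456 Mb, set apart from the other regions of the highest stretch by 26.6 kb, had a background of 1.28. Over the whole lists, which differ in length, the median background was 1.79 and 1.63 in DKO, against 2.1 and 2.0 in WT. Over the 8068 regions called in all 4 libraries it was 2.39 and 1.82 in DKO, against 2.28 and 2.06 in WT. The ranges of the stretches overlapped in DKO replicate 2, where the background at the 41.080 Mb site, 2.26, lay above that of both peaks of the lowest stretch, 2.15 and 2.17. The fold divides by this background, so a like pileup gives a higher fold where it is low. In DKO replicate 1, for example, 43 fragments gave a fold of 17.0 at 41.087 Mb and of 9.83 at 40.841 Mb. Without a control library the background near a site also holds the fragments of the site itself, and the use of a control is not given in the sources used here.

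**Figure D5:**
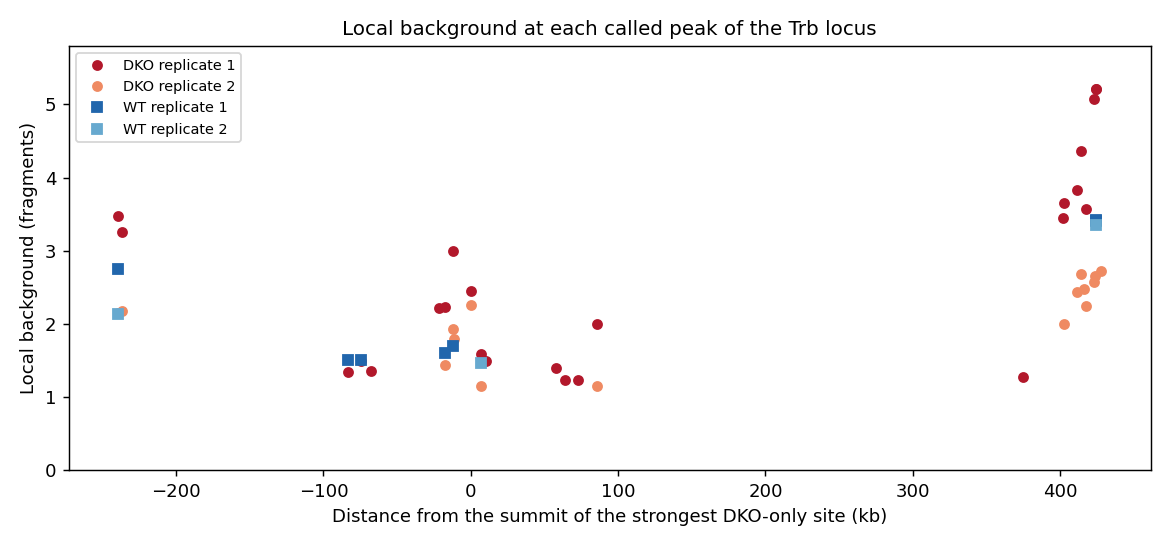
Local background at each of the 50 called peaks (vertical axis, fragments, solved from the deposited fold and −log10 p) against distance in kb from the summit of the 41.080 Mb site. The median of each library, which for WT replicate 2 is 1 peak a stretch, lay between 1.47 and 1.62 fragments in the middle stretch and between 2.13 and 3.84 in the lowest and highest stretches.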

How the data were processed

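The authors deposited 1 peak list per library. The submitters' processing notes name Bowtie2 2.2.5, FastQC, MACS2 2.1.1 and the build mm9. Settings and filters are not given in the sources used for this work. For each peak the authors deposited a fold enrichment (a ratio), the −log10 p, the −log10 q and a score of 10 times the −log10 q. Deposited starts were converted to positions counted from 1. Read totals were not used, so depth is known only indirectly, through the background level. Pileup and background were solved from fold and −log10 p, and 100% of the pileups solved (−log10 p under 250) were whole within 0.02. The solution and the classes were tested on simulated data. Peaks overlapping by at least 1 bp formed regions. An absent call means that the listing thresholds were not met or that a call was removed before deposit. The running peak numbers lacked 1476 and 908 numbers in DKO replicates 1 and 2, against 1529 and 871 in WT replicates 1 and 2. All regions called in at least 2 libraries are named with values, others by ranges with the strongest named. The members, stretches (gaps over 100 kb) and lists were chosen with earlier results of these data known. No sequence is shown, since no mm9 genome was used and the promoter table held 0 of 53 Trb segments. Python 3.11.15, pandas 2.3.3, numpy 2.4.6, scipy 1.17.1 and matplotlib 3.10.9 were used. The alternatives were a −log10 q of at least 5 or 10, lists cut to equal length, merging within 500 bp, summits within 150 bp, a window wider by 100 kb at each side, any overlap with the window and leaving out each library.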

Additional observations from a re-analysis of the deposited data

How the results depend on the processing

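The log2 ratio of locus peak numbers, DKO over WT, was 2.0 and stayed positive in all 12 alternatives, from 1.39 at equal list lengths to 2.22 at −log10 q of at least 10, and from 1.51 without WT replicate 2 to 2.74 without WT replicate 1. The 7 DKO-only regions of 28 became 4 of 19 at −log10 q of at least 10, against 16.6% of all regions at that setting, and 3 of 13 at equal list lengths, against 5.75%. Leaving out a library, which can only raise this count, gave 8 of 28 without WT replicate 2, against 16.9% of all regions. It gave 9 of 28 without WT replicate 1, against 27.0%, the omission at which the locus stood nearest the series. The counts were 11 of 18 without DKO replicate 1, against 27.5%, and 17 of 24 without DKO replicate 2, against 48.1%. The 2 regions called in all 4 libraries became 1 at −log10 q of at least 10, and 2 to 4 with a library left out. The shares of all regions in this class at these settings are not given here, so these counts are not read further. WT-only regions remained at 0 in every alternative run. The rank of the 41.080 Mb site in DKO replicate 2 was 67 by −log10 p and 32 by fold, and in DKO replicate 1 it was 274 and 197. With the replicate number as a block, the log2 ratio was 1.78 between replicates 1 and 2.42 between replicates 2, a mean of 2.1. Replicate 1 had more locus peaks in both genotypes, but the labels do not say that equal numbers share a mouse or a batch. Depth limits all values, and without reads an absent call cannot be turned into a level.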
